A study of Mus musculus with 40 samples.

Results

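Solute carriers and ATP-binding cassette (ABC) proteins are the main families of membrane transporters, and their transcripts were followed here in mouse duodenum after exposure to chromium or to a fungicide. The members are all probes whose gene symbol begins with Slc and a digit, with Slco, or with Abc, a letter from A to G and a digit, except Slc7a11 and Abcb1a. There were 76 such probes for 70 genes among 3045 probes for 2756 symbols. Of these, 64 passed the filter on low counts, 51 of solute carriers and 13 of ABC proteins, out of 2541 probes tested in all.

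RNA was read with TempO-Seq, which joins 2 DNA oligonucleotides that bind next to each other on an RNA and counts the joined products. It came from sections of fixed, paraffin-embedded duodenum, scraped from the slide, of wildtype male B6C3F1 mice (a cross of inbred strains), and exposure lasted 28 days. The control group held 5 libraries and each of 5 exposed groups 7. Drinking water carried hexavalent chromium, Cr(VI), at 180 ppm, and feed carried captan (6000 ppm in one group, 12000 ppm in another) or folpet (6000 ppm in one, 16000 ppm in another). Captan and folpet both carry a trichloromethylthio group on an imide nitrogen; the ring system is partly saturated in captan and aromatic in folpet. The labels state neither the animals' age nor whether the libraries are from different mice, so p-values reflect the spread of these libraries, which may be technical.

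Absorption in the small intestine depends on carriers of the brush border that take up sugars, amino acids, iron and nucleosides, and on carriers of the basolateral membrane that pass them to the blood. ABC exporters of the MRP and BCRP types pump conjugates and foreign compounds out of the enterocyte, and organic cation exporters of the MATE type do the same for basic drugs. Other solute carriers sit inside the cell, in mitochondria, Golgi or vesicles. A few genes carry a family symbol without being transporters: Slc9a3r1 (NHERF1) is a scaffold under the brush border, and Abcf1 and Abcf3 are soluble proteins linked to translation.

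Library totals ran from 1763440 to 7904819 counts. The share of counts taken by 18 probes for enzymes of the exocrine pancreas (acinar cells), an organ that lies beside the duodenum, was uneven between groups. Its mean ± SD was 49.0 ± 22.5% over the 5 controls and 53.2 ± 25.1% over the 7 Cr(VI) libraries. Captan libraries averaged 18.3 ± 14.8% at 6000 ppm and 11.7 ± 19.2% at 12000 ppm, and folpet libraries 19.6 ± 13.5% at 6000 ppm and 26.3 ± 10.7% at 16000 ppm (7 libraries each). Against control, exact permutation tests adjusted over the 5 comparisons gave p = 0.755 for Cr(VI), 0.0421 for each captan group and for folpet 6000 ppm, and 0.0663 for folpet 16000 ppm. It exceeded 50% in 7 libraries, namely 2 controls (replicates 4 and 5), 4 Cr(VI) libraries (2, 3, 4, 7) and replicate 7 of captan 12000 ppm. Control replicate 5, at 77.6%, also had the lowest control total, 2121824 counts. It held 1460 probes above 0, against 1908 to 2322 in the other controls. The part of this in its low values and values of 0 was not tested. Of 14 listed enterocyte markers 4 were on the panel, and the summed level of Klf4, Apoa1, Fabp1 and Fabp2 was 52057, 60304, 50189.8, 48939.6 and 17085 CPM (counts over the scaled library size, times 1e6) in control replicates 1 to 5. The medians of the exposed groups lay between 66490.2 and 81020.5 CPM, and at an adjusted p under 0.05 (edgeR) 3 of the 4 rose with Cr(VI), 2 with captan 6000 ppm, 4 with captan 12000 ppm, 2 with folpet 6000 ppm and 4 with folpet 16000 ppm. Of 6 smooth muscle probes between 1 and 4 fell in each exposed group, their sum lying at 1047 to 1848 CPM in control and 516 to 809 CPM with folpet 16000 ppm. It overlapped control with Cr(VI) (661 to 1147 CPM), captan 6000 ppm (478 to 1095) and captan 12000 ppm (554 to 1722), but not with folpet 6000 ppm (586 to 922). Of 4 immune probes 1 fell in each group, with sums of 8675 to 26129.6 CPM in control and 2211 to 6578 CPM with folpet 16000 ppm. The immune sum overlapped control with captan 6000 ppm (5004 to 12544 CPM) and folpet 6000 ppm (3268 to 12175), but not with Cr(VI) (3333 to 7243) or captan 12000 ppm (3647 to 8439). Of all probes 2.95% rose and 2.99% fell with Cr(VI). The shares were 3.78% and 1.38% with captan 6000 ppm and 4.64% and 1.53% with captan 12000 ppm. They were 4.6% and 1.61% with folpet 6000 ppm and 7.91% and 4.68% with folpet 16000 ppm. The part of enterocyte, muscle and immune transcripts in the results was not tested; that of the acinar share is given as values without the 7 libraries or with the share as a covariate. In bulk RNA, fewer cells of a type and less RNA per cell cannot be told apart.

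Against control, the members changed in small numbers, with 29 rises and 6 falls over the 5 comparisons. Of the rises 4 are of Slc9a3r1 and 3 of Abcf1, which are no transporters. Of the falls 2 are of Slc1a2 and rest on 1 library. The creatine carrier Slc6a8 rose in all 5, and the exporters Abcc3 and Slc47a1 and the scaffold gene Slc9a3r1 rose in all 4 fungicide groups. A probe is said to have risen or fallen at a Benjamini-Hochberg adjusted p under 0.05 in edgeR's quasi-likelihood test, adjusted over all 2541 probes. With Cr(VI), 2 of 64 transporter probes rose and 0 fell (2 lower at an unadjusted p under 0.05, 1 by DESeq2), against a background of 2.95% of all probes higher and 2.99% lower. With captan at 6000 ppm 6 rose and 2 fell (background 3.78% and 1.38%), and at 12000 ppm 7 rose and 1 fell (background 4.64% and 1.53%). With folpet at 6000 ppm 5 rose and 0 fell (3 lower at an unadjusted p under 0.05, 0 by DESeq2; background 4.6% and 1.61%), and at 16000 ppm 9 rose and 3 fell (background 7.91% and 4.68%). As a share of the 64 members, calls in either direction came to 3.12%, 12.5%, 12.5%, 7.81% and 18.8% in that order, beside 5.94%, 5.16%, 6.18%, 6.22% and 12.6% of all probes. The Cr(VI) share thus lay below its background and the folpet 6000 ppm share near it. The median log2 fold change of the members was 0.06, 0.16, 0.06, 0.03 and -0.12, beside -0.03, 0.01, 0.00, 0.00 and -0.05 for all probes. With the 3 members listed at 0 throughout 1 group set to a floor of 3 counts over that group, the folpet 16000 ppm median was -0.17, and those of the other 4 comparisons stayed as given. The 5 comparisons share the control libraries and are not independent of each other.

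Of the 64 probes, 51 were called in none of the 5 comparisons, 3 each in 1, 2, 3 and 4 of them, and 1, Slc6a8, in all 5. Of all 2541 probes 83.2% were called in none and 1.65% in all 5. Scaling the libraries to their totals alone put the median of all probes at up to 0.44 on the log2 scale (captan 12000 ppm against control) and gave 0, 3, 5, 4 and 2 rises and no falls in the 5 comparisons. Of the original calls 0, 3, 4, 4 and 2 remained.

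**Figure D1:**
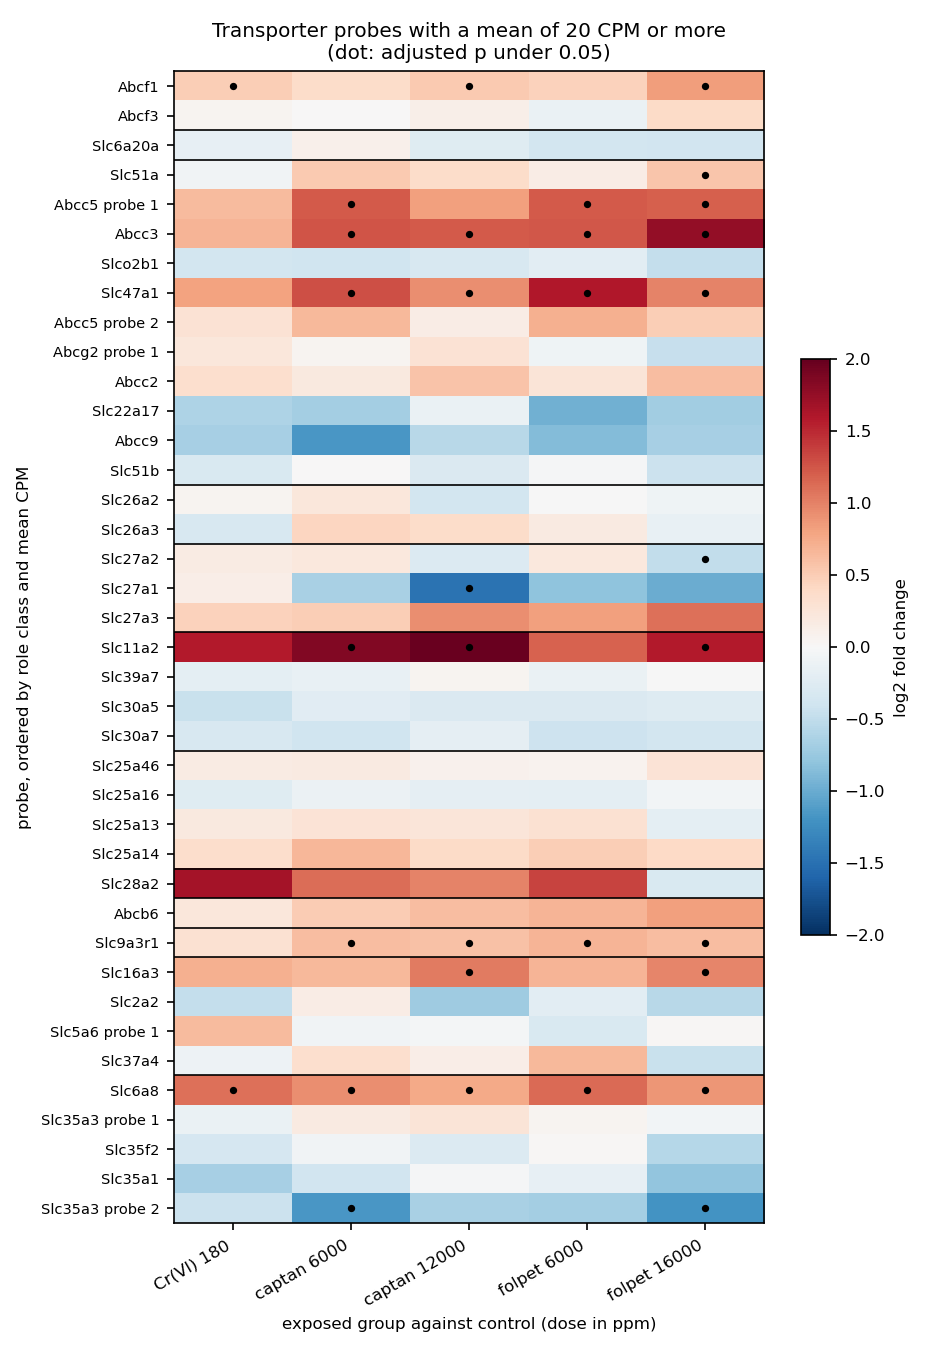
Log2 fold change against control (colour, limited to 2 either way) of 39 of the 41 tested transporter probes with a mean of 20 CPM or more, in rows by role class, for each exposed group in columns; dots mark an adjusted p under 0.05. Slc6a8 carries a dot in all 5 columns, Abcc3, Slc47a1 and Slc9a3r1 in the 4 fungicide columns, and most rows carry none.

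Slc6a8, the carrier that takes up creatine, rose in every exposed group. Levels of different genes are not compared, here or below, because each probe captures its transcript with its own efficiency. In control replicates 1 to 5 it stood at 2216, 4049, 3501, 2234 and 1091 CPM. After Cr(VI) the 7 libraries ran from 4621 to 6619 CPM (median 5643). Captan gave 4049 to 5908 CPM (median 4818) at 6000 ppm and 2983 to 5348 CPM (median 4768) at 12000 ppm. Every library of the Cr(VI), captan 6000 ppm and folpet 6000 ppm groups lay above the highest control, the lowest of captan 6000 ppm only just, while 5 of 7 did so at captan 12000 ppm and 6 of 7 at folpet 16000 ppm. Folpet gave 4353 to 7146 CPM (median 5063) at 6000 ppm and 3646 to 6095 CPM (median 4606) at 16000 ppm. The log2 fold change (± standard error, here and below) was 1.11 ± 0.20 with Cr(VI), 0.93 ± 0.20 and 0.76 ± 0.20 with captan and 1.14 ± 0.20 and 0.88 ± 0.20 with folpet, the lower dose first. Adjusted p was 0.000442, 0.00196, 0.0108, 0.000106 and 0.00135 in the same order (edgeR). Control replicate 5, which was also lowest in the enterocyte markers, had the lowest value; without it the 5 log2 fold changes were 0.91, 0.73, 0.57, 0.94 and 0.68 and all 5 calls remained. Without the 7 libraries over 50% acinar they were 0.75, 0.63, 0.51, 0.85 and 0.58, and the calls for Cr(VI) and both captan doses were lost. With the acinar share as a covariate they were 1.14, 0.87, 0.69, 1.08 and 0.84, and the captan 12000 ppm call was lost. With library totals only the folpet 6000 ppm call remained, at 1.27. Both captan calls were also lost when the fit held the compared groups alone.

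**Figure D2:**
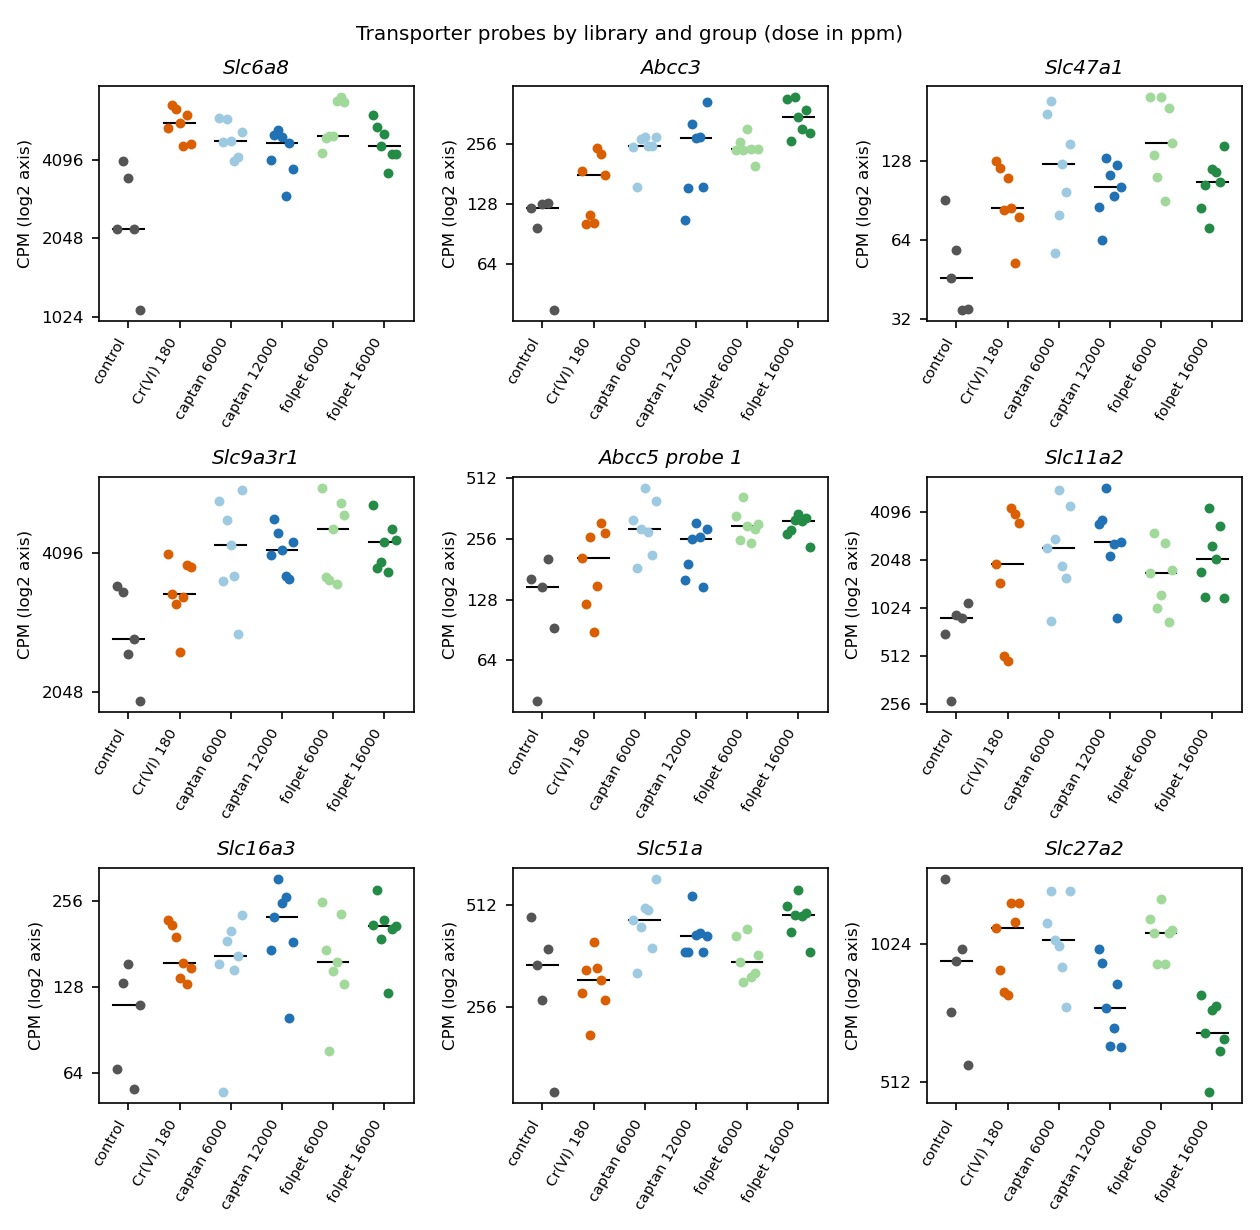
CPM of 9 transporter probes in each of the 40 libraries (points, log2 axis) by group, with the group median as a bar. All 7 Cr(VI) libraries of Slc6a8 (4621 to 6619 CPM) lie above the highest control (4049 CPM), and the lowest group median of Slc27a2 (653 CPM) is that of folpet 16000 ppm.

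The carriers of bile acids, organic ions and drugs were the largest role class, with 26 probes, 16 of the 64 tested. Of the 29 rises 12 lay here: 4 of Abcc3, 4 of Slc47a1, 3 of Abcc5 probe 1 and 1 of Slc51a. These are calls per comparison, the comparisons share the controls, and 12 of 29 is no share of the probes in the class. In it 0 probes rose with Cr(VI) by edgeR (3 higher at an unadjusted p under 0.05, 0 by DESeq2), 3 and 2 with captan at 6000 and 12000 ppm, and 3 and 4 with folpet at 6000 and 16000 ppm; of all probes 2.95%, 3.78%, 4.64%, 4.6% and 7.91% rose in the same order. In the 5 comparisons with control together 0 of its results fell by edgeR, with 2 lower at an unadjusted p under 0.05 and 1 lower by DESeq2 (Abcc9, with captan 6000 ppm). Abcc3 (MRP3) exports glucuronides and bile acid conjugates across the basolateral membrane. Its control values were 122, 97.5, 128, 129.9 and 37.8 CPM, with control replicate 5 far below the other 4. With folpet it measured 198 to 304 CPM (median 241) at 6000 ppm and 264 to 442 CPM (median 348) at 16000 ppm, and with captan 157 to 279 CPM (median 251) and 106 to 416 CPM (median 273). All libraries of both folpet groups and of captan 6000 ppm lay above every control; at captan 12000 ppm 6 of 7 did. After Cr(VI) the libraries ran from 102 to 244 CPM (median 178) and overlapped control. The log2 fold changes were 1.25 ± 0.26 and 1.23 ± 0.26 with captan and 1.24 ± 0.26 and 1.76 ± 0.27 with folpet (adjusted p = 0.00196, 0.00188, 0.00146 and 5.75e-06, edgeR). With Cr(VI) the value was 0.67 ± 0.26 (adjusted p = 0.114). Without the 7 libraries over 50% acinar the fungicide values were 1.12, 0.92, 1.12 and 1.62, all still called, and all 4 were also called without control replicate 5, at 1.05, 1.03, 1.04 and 1.56.

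Slc47a1 (MATE1), which exchanges organic cations for protons, rose in the same 4 groups. Control replicates 1 to 5 stood at 90.8, 46.1, 58.7, 34.8 and 35.1 CPM, replicate 1 being the highest. Folpet at 6000 ppm gave 90.1 to 225 CPM (median 150.1) and at 16000 ppm 71.1 to 146 CPM (median 106). Captan gave 57.3 to 216 CPM (median 125) and 63.8 to 132 CPM (median 102), and Cr(VI) 52.5 to 128 CPM (median 85.1). Each group overlapped control, yet all 7 libraries of each fungicide group lay above the control mean of 53.1 CPM. The log2 fold changes were 1.29 ± 0.29 and 0.93 ± 0.29 with captan and 1.60 ± 0.29 and 1.0 ± 0.29 with folpet (adjusted p = 0.00335, 0.0375, 0.000193 and 0.0147, edgeR), against 0.81 ± 0.29 with Cr(VI) (adjusted p = 0.0770). Without the libraries over 50% acinar the folpet 6000 ppm value was 1.35 and still called, while captan 6000 ppm (1.02), captan 12000 ppm (0.67) and folpet 16000 ppm (0.73) were not. The captan 12000 ppm call was also lost without control replicate 2, 4 or 5 or captan 12000 ppm replicate 3 or 6, at 0.81 to 0.91.

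Abcc5 (MRP5), an exporter of cyclic nucleotides and other organic anions, was read by 2 probes that did not give the same calls. Probe 1 stood at 163, 40.3, 148, 202 and 92.8 CPM in control. It measured 184 to 458 CPM (median 287) and 148 to 305 CPM (median 255) with captan, and 243 to 409.9 CPM (median 296) and 233 to 338 CPM (median 315) with folpet. Both folpet groups lay wholly above control. Probe 1 rose with captan 6000 ppm (1.23 ± 0.28, adjusted p = 0.00411) and with folpet at 6000 ppm (1.22 ± 0.28, 0.00319) and 16000 ppm (1.20 ± 0.28, 0.00231; edgeR). Its values with captan 12000 ppm and Cr(VI) were 0.83 ± 0.28 and 0.63 ± 0.28 and did not pass in edgeR; DESeq2 called the captan value (0.79 ± 0.27, adjusted p = 0.0385). Probe 2 passed nowhere, at 0.65 ± 0.50, 0.71 ± 0.50 and 0.50 ± 0.50 in the 3 groups where probe 1 rose. Its control values were 76.3, 0, 55.6, 41.7 and 79.3 CPM, replicate 2 being the lowest with both probes. The log2 ratio of probe 1 to probe 2 averaged 2.32 ± 2.51 (SD, n = 5) in control and differed from it by -0.38, -0.42 and -0.14 in those groups. The control mean and SD include replicate 2, where probe 2 was 0 and the prior count sets the ratio. The differences therefore cannot show whether the 2 probes moved together. A pair of probes on 1 gene is not a pair of replicates. Probe 1 kept all 3 calls without the libraries over 50% acinar, at 1.41, 1.41 and 1.37.

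**Figure D3:**
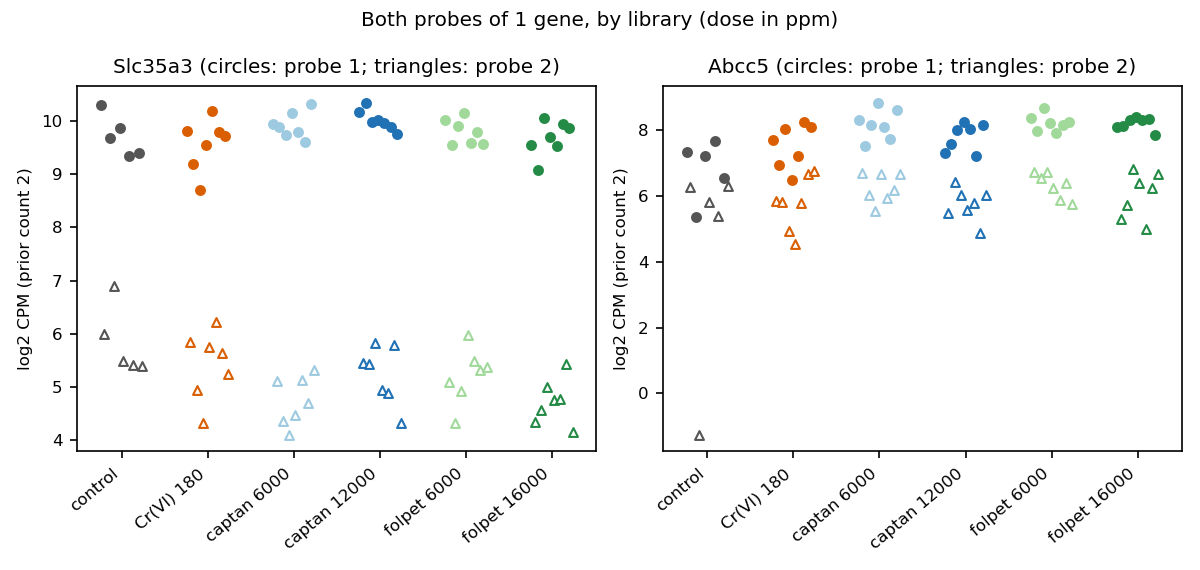
Log2 CPM (prior count 2) of both probes of Slc35a3 (left) and Abcc5 (right) in each library by group; filled circles are probe 1 and open triangles probe 2. The lowest triangle of Abcc5 is control replicate 2, at 0 counts, and for Slc35a3 the triangles sit lower in captan 6000 ppm and folpet 16000 ppm while the circles do not.

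Slc51a and Slc51b encode the alpha and beta subunits of the organic solute transporter, which releases bile acids through the basolateral membrane only as a heterodimer. Slc51a was 472, 340.4, 268, 379.8 and 143 CPM in control and 373 to 569 CPM (median 479) with folpet 16000 ppm. It rose there by 0.56 ± 0.18 (adjusted p = 0.0301, edgeR), with 5 of 7 libraries above the highest control. The call was lost without control replicate 3 or 5 or folpet 16000 ppm replicate 1 or 4, at 0.38 to 0.53, and without the libraries over 50% acinar (0.41). Slc51b was 41.6, 49.3, 13.8, 20.6 and 0 CPM in control and 14.1 to 23.1 CPM (median 18.4) with folpet 16000 ppm, where it did not pass (-0.42 ± 0.53). The other 12 tested probes of the class, Slc51b included, passed in no comparison with control by edgeR. Slco2b1 (an organic anion importer) lay between -0.47 and -0.22 on the log2 scale. The apical exporters Abcc2 (MRP2) and Abcg2 (BCRP, probe 1) lay between 0.19 and 0.61 and between -0.46 and 0.28. The 95% interval of Abcc2 at folpet 16000 ppm was wide, from -0.50 to 1.73. Slc10a2 (ASBT), the ileal bile acid importer, was above 0 in 11 of 40 libraries, at 5.01, 0, 0, 0 and 0 CPM in control.

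Slc9a3r1, the NHERF1 scaffold, which anchors ion exchangers and exporters to the brush border and carries no solute itself, rose with all 4 fungicide diets. It was 3466, 3372, 2475, 2659 and 1959 CPM in control. Captan gave 2738 to 5596 CPM (median 4261) and 3595 to 4849 CPM (median 4139), and folpet 3499 to 5654 CPM (median 4611) and 3726 to 5194 CPM (median 4306). The captan 12000 ppm and both folpet groups did not overlap control, and at captan 6000 ppm 6 of 7 libraries lay above it. Log2 fold changes were 0.62 ± 0.16, 0.58 ± 0.16, 0.67 ± 0.16 and 0.62 ± 0.16 (adjusted p = 0.0148, 0.0222, 0.00544 and 0.00795, edgeR), and 0.30 ± 0.16 with Cr(VI) (adjusted p = 0.304). Without the libraries over 50% acinar none of the 4 calls remained, with values of 0.47, 0.44, 0.54 and 0.48. Both captan calls were also lost without control replicate 5, at 0.51 and 0.48.

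Among the 4 metal carriers, Slc11a2 (DMT1), which imports ferrous iron at the brush border, rose and the zinc carriers did not pass in edgeR. Slc11a2 spread widely between libraries: control stood at 695, 267, 919, 882 and 1089.8 CPM, captan at 847 to 5629.6 CPM (median 2430.2) and 885 to 5786 CPM (median 2643). Folpet gave 832 to 3003 CPM (median 1694) and 1176 to 4290.0 CPM (median 2058), and Cr(VI) 476 to 4313 CPM (median 1920.3). At folpet 16000 ppm every library lay above every control, the lowest only just, and in both captan groups 6 of 7 did. The log2 fold changes were 1.86 ± 0.54 and 1.97 ± 0.54 with captan and 1.59 ± 0.53 with folpet 16000 ppm (adjusted p = 0.0333, 0.0210 and 0.0428, edgeR). Those of Cr(VI) (1.58 ± 0.53) and folpet 6000 ppm (1.17 ± 0.52) did not pass in edgeR, at adjusted p = 0.0690 and 0.197; DESeq2 called the Cr(VI) rise (1.58 ± 0.46, adjusted p = 0.0112). With the acinar share as a covariate the 3 called values were 1.37, 1.47 and 1.23 and none passed. Without the libraries over 50% acinar they were higher, at 2.19, 2.34 and 1.92. In that setting the captan 12000 ppm and folpet 16000 ppm calls remained and the captan 6000 ppm call was lost. Leaving out 1 library ended the captan 6000 ppm call without control replicate 1, 2 or 5 or captan 6000 ppm replicate 4 or 7 (1.60 to 2.01), the captan 12000 ppm call without control replicate 2 or captan 12000 ppm replicate 3 (1.73 to 1.78) and the folpet 16000 ppm call without control replicate 1, 2, 3, 4 or 5 or folpet 16000 ppm replicate 3, 4, 5 or 6 (1.37 to 1.75). The zinc carriers Slc39a7, Slc30a5 and Slc30a7 lay between -0.44 and 0.05 in all 5 comparisons; Slc30a5 with Cr(VI) (-0.44 ± 0.15) came nearest to passing in edgeR, at adjusted p = 0.0585, and was called lower by DESeq2 (-0.44 ± 0.14, adjusted p = 0.0307).

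Of the sugar and monocarboxylate carriers, Slc16a3 (MCT4), the lactate exporter of glycolytic cells, rose at the higher dose of each fungicide. It was 66.3, 132, 154, 56.2 and 111 CPM in control, 99.9 to 307 CPM (median 224) with captan 12000 ppm and 122 to 281 CPM (median 209) with folpet 16000 ppm. In each of these groups 6 of 7 libraries lay above the highest control. The log2 fold changes were 1.05 ± 0.28 and 0.98 ± 0.28 (adjusted p = 0.0147 and 0.0135, edgeR). At 6000 ppm captan and folpet gave 0.64 ± 0.28 and 0.68 ± 0.28 and Cr(VI) 0.72 ± 0.28, none of which passed. Without control replicate 4 both calls were lost (0.89 and 0.82), as they were without the libraries over 50% acinar (0.93 and 0.83). Slc2a2 (GLUT2), which passes glucose and fructose to the blood, did not pass, at -0.48 ± 0.31 with Cr(VI), -0.71 ± 0.31 with captan 12000 ppm and -0.56 ± 0.31 with folpet 16000 ppm. Slc5a6 (probe 1), a carrier of biotin and pantothenate, was 0.63 ± 0.30 with Cr(VI) and did not pass either.

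Abcf1, Slc16a3 and Slc9a3r1 all rose at captan 12000 ppm and at folpet 16000 ppm, and their promoters are shown to let them be compared. Each is the 250 bases before the RefSeq start on the gene's strand in build GRCm38.p6: Slc16a3 at chr11:120948817-120949066 (plus strand), Abcf1 at chr17:35969751-35970000 (minus strand) and Slc9a3r1 at chr11:115163091-115163340 (plus strand). Capitals mark ACGTG, the core letters of hypoxia response elements, or its reverse complement; in Abcf1 both strands match and overlap.
Slc16a3: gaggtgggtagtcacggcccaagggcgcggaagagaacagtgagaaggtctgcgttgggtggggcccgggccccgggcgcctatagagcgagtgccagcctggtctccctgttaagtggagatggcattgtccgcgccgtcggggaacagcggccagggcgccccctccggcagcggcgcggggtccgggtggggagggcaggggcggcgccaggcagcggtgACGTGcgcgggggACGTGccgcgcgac
Abcf1: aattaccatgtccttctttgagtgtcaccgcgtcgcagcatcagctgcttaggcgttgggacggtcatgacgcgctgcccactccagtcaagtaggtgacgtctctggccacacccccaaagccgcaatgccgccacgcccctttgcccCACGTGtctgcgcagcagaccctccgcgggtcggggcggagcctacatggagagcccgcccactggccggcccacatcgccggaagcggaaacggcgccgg
Slc9a3r1: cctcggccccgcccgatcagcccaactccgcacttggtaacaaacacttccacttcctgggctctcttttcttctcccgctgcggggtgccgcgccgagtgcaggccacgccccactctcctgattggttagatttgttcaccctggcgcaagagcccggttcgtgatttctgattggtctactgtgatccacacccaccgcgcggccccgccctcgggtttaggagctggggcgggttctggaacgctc
Both strands were searched for ACGTG, for TGACNNNGC (antioxidant response) and for TGANTCA (AP-1), which 16.6%, 10.2% and 6.75% of 32851 mouse promoters of this length hold. Slc16a3 holds ACGTG in 2 places and Abcf1 in 1 overlapping place, and Slc9a3r1 holds none of the 3 motifs in this window, nor do the windows of Abcc5, Slc1a2 and Slc35a3. A match is a description of letters and not a binding site. A promoter entry was found for 55 of the 70 genes. None was found for Abcc3, Slc47a1, Slc6a8 and Slc11a2.

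Abcf1, which acts in translation initiation and is no transporter, rose in 3 groups. It was 192, 208, 278, 340.1 and 318 CPM in control, 311 to 442 CPM (median 386) with Cr(VI), 321 to 445 CPM (median 376) with captan 12000 ppm and 324 to 534 CPM (median 513) with folpet 16000 ppm. All 7 libraries of each lay above the control mean of 267 CPM. The log2 fold changes were 0.49 ± 0.15, 0.53 ± 0.15 and 0.83 ± 0.15 (adjusted p = 0.0405, 0.0238 and 8.43e-05, edgeR). The Cr(VI) call was lost without control replicate 1 or 2 or Cr(VI) replicate 2, 3, 4 or 6 (0.41 to 0.48) and without the libraries over 50% acinar (0.62). The captan call was lost without control replicate 1 or 2 or captan 12000 ppm replicate 3 (0.46 to 0.51). Its relative Abcf3 did not pass, at 0.06 ± 0.22, 0.11 ± 0.22 and 0.38 ± 0.23.

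Among the 5 lipid transporters 2 fell in a fungicide group and 0 rose against control by edgeR (0 higher at an unadjusted p under 0.05, 0 by DESeq2). One fell with captan 12000 ppm, where 1.53% of all probes fell, and the other with folpet 16000 ppm, where 4.68% did. Slc27a2 (FATP2, a very long-chain acyl-CoA synthetase and fatty acid carrier) was lower with folpet 16000 ppm: 486 to 792 CPM (median 653), against 924 to 1281 CPM (median 1082) at 6000 ppm and 1422, 728, 941, 996 and 557 CPM in control. Against control it fell by 0.48 ± 0.17 on the log2 scale (adjusted p = 0.0458, edgeR), a call lost without control replicate 1, 3 or 4 or folpet 16000 ppm replicate 2, 3, 4, 6 or 7, at -0.51 to -0.27. Against folpet 6000 ppm it fell by 0.70 ± 0.15 (adjusted p = 0.00635), and the folpet groups did not overlap. Captan gave 0.21 ± 0.17 and -0.27 ± 0.17 against control, neither of which passed. Slc27a1 (FATP1, a fatty acid carrier with high expression in muscle and fat) was 87.1, 98.3, 60.3, 168 and 245 CPM in control and 12.5 to 101 CPM (median 44.3) with captan 12000 ppm, where it fell (-1.48 ± 0.40, adjusted p = 0.0178, edgeR). Control replicates 4 and 5, which also had the highest acinar shares of the controls, held its highest control values. Without control replicate 5 the value was -1.14, without the libraries over 50% acinar -0.91, and with the share as a covariate -0.24, none of them called.

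Slc28a2 (CNT2), the concentrative carrier of purine nucleosides, spread widely in control, at 90.4, 99.7, 34, 11.3 and 0 CPM, and passed against control in none of the 5 groups. Cr(VI) gave 51.9 to 278 CPM (median 150.3) and a log2 fold change of 1.66 ± 0.69 (adjusted p = 0.154). Folpet gave 59.6 to 195 CPM (median 121) at 6000 ppm and 0.397 to 86.3 CPM (median 36.4) at 16000 ppm, or 1.36 ± 0.69 and -0.31 ± 0.66 against control. With captan it was 1.11 ± 0.68 and 0.99 ± 0.68.

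Among the Golgi carriers, Slc35a3, which brings UDP-N-acetylglucosamine into the Golgi, gave a fall in only 1 of its 2 probes. Probe 2, with fewer counts, stood at 63.2, 118, 44.7, 42.3 and 41.4 CPM in control, 16.7 to 39.5 CPM (median 25.6) with captan 6000 ppm and 17.3 to 43 CPM (median 26.7) with folpet 16000 ppm. Captan 6000 ppm lay wholly below control and folpet 16000 ppm in 6 of 7 libraries. It fell by 1.17 ± 0.36 and by 1.20 ± 0.36 on the log2 scale (adjusted p = 0.0407 and 0.0181, edgeR). Without control replicate 2 the values were -0.78 and -0.82 and neither passed; the captan call was lost in 6 of 12 fits, those without control replicate 1 or 2 or captan 6000 ppm replicate 2, 3, 4 or 6 (-1.15 to -0.78). Probe 1, with a mean of 904 CPM, stood at 1257, 821, 937, 651 and 675 CPM in control and gave 0.17 ± 0.18 and -0.06 ± 0.18. The log2 ratio of probe 1 to probe 2 was 3.88 ± 0.64 in control (SD, n = 5), 5.17 ± 0.42 with captan 6000 ppm and 4.96 ± 0.43 with folpet 16000 ppm (n = 7 each). These groups were chosen because probe 2 alone was called there, so the ratios are a description with no test. The transcripts that each probe covers were not analysed here. Slc35a1 and Slc35f2 did not pass, at -0.78 ± 0.44 and -0.57 ± 0.28 with folpet 16000 ppm.

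The 7 amino acid and peptide probes gave 0 rises against control in edgeR (0 higher at an unadjusted p under 0.05, 0 by DESeq2). Of the results of this class 2 were lower in edgeR, 10 at an unadjusted p under 0.05 and 2 by DESeq2. The 2 in edgeR were with captan 6000 ppm and folpet 16000 ppm, where 1.38% and 4.68% of all probes fell. The only gene called in edgeR, Slc1a2 (GLT-1, a glutamate carrier), rested on 1 library. It was 3.08, 0, 0, 0 and 48.6 CPM in control and 0 in all libraries of captan 6000 ppm and folpet 16000 ppm, where it was called lower (adjusted p = 0.0364 and 0.0196, edgeR). Without control replicate 5 neither call remained; the captan call was also lost without captan 6000 ppm replicate 1, 3, 4, 5, 6 or 7, and no fold is given. DESeq2 called it with folpet 16000 ppm and not with captan 6000 ppm. Slc1a3 (probe 1, GLAST, another glutamate carrier) was 29.5, 26.1, 31.3, 18.8 and 65.7 CPM in control, 0 to 19.5 CPM (median 12.3) with Cr(VI) and 3.37 to 16.1 CPM (median 12.4) with folpet 16000 ppm. Its values in the 5 groups, from -1.81 to -1.58, all had an unadjusted p under 0.05 and none passed the adjusted test (smallest adjusted p = 0.168). Slc6a20a, an imino acid carrier, was 1244, 933, 932, 1191 and 739 CPM in control and did not pass in edgeR, at values from -0.38 to 0.10; DESeq2 called it lower with folpet 16000 ppm (-0.45 ± 0.16, adjusted p = 0.0318).

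The 7 mitochondrial carriers gave 0 calls in all 10 comparisons by edgeR, with 1 result higher and 2 lower at an unadjusted p under 0.05 and 0 by DESeq2. Per comparison 0% to 12.6% of all probes were called, so 0 of 7 does not set this class apart. Slc25a46, a regulator of mitochondrial shape, was 266, 344, 298, 244 and 284 CPM in control and 298 to 418 CPM (median 339) with folpet 16000 ppm, a log2 fold change of 0.27 ± 0.13. Its values in the other groups lay between 0.06 and 0.18. Slc25a13, the aspartate and glutamate carrier, lay between -0.19 and 0.30. The ion exchangers Slc26a2 (sulfate) and Slc26a3 (chloride and bicarbonate) did not pass, at -0.37 ± 0.23 and 0.37 ± 0.50 with captan 12000 ppm. Abcb6, a porphyrin-linked transporter of organelles, had a mean of 25.4 CPM and gave 0.82 ± 0.65 with folpet 16000 ppm.

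Captan and folpet were compared at their shared dose of 6000 ppm over the 64 probes, that is 1 pair of compounds, and 0 transporters differed, with 4 at an unadjusted p under 0.05, 0 by DESeq2 and a smallest adjusted p of 0.298, that of Slc6a20a (0.48 ± 0.14, captan minus folpet; edgeR). Of all probes 0.157% differed. For the genes that rose in both groups the 95% intervals of the difference were -0.46 to 0.48 for Abcc3 (0.01), -0.49 to 0.50 for Abcc5 probe 1 (0.01) and -0.36 to 0.24 for Slc9a3r1 (-0.06). They were -0.56 to 0.15 for Slc6a8 (-0.21) and -0.82 to 0.19 for Slc47a1 (-0.31). The interval of Slc11a2, -0.25 to 1.62 around 0.68, was the widest among the genes that rose with either compound. A p above the threshold does not show that the compounds act alike. The higher doses, 12000 ppm for captan and 16000 ppm for folpet, differ, and their values stand side by side only.

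Within each compound, the step to the higher dose changed few transporters. From captan 6000 to 12000 ppm 0 members passed, as did 0% of all probes, and 6 members had an unadjusted p under 0.05 while DESeq2 and the other alternatives gave 0. Slc27a2 had -0.48 ± 0.15 and Slc2a2 -0.85 ± 0.29 there. From folpet 6000 to 16000 ppm 1 member, Slc27a2, fell (above), against 1.14% of all probes lower and 0.59% higher. Abcc3 (0.51 ± 0.23), Slc47a1 (-0.61 ± 0.25) and Slc28a2 (-1.66 ± 0.62) did not pass.

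**Figure D4:**
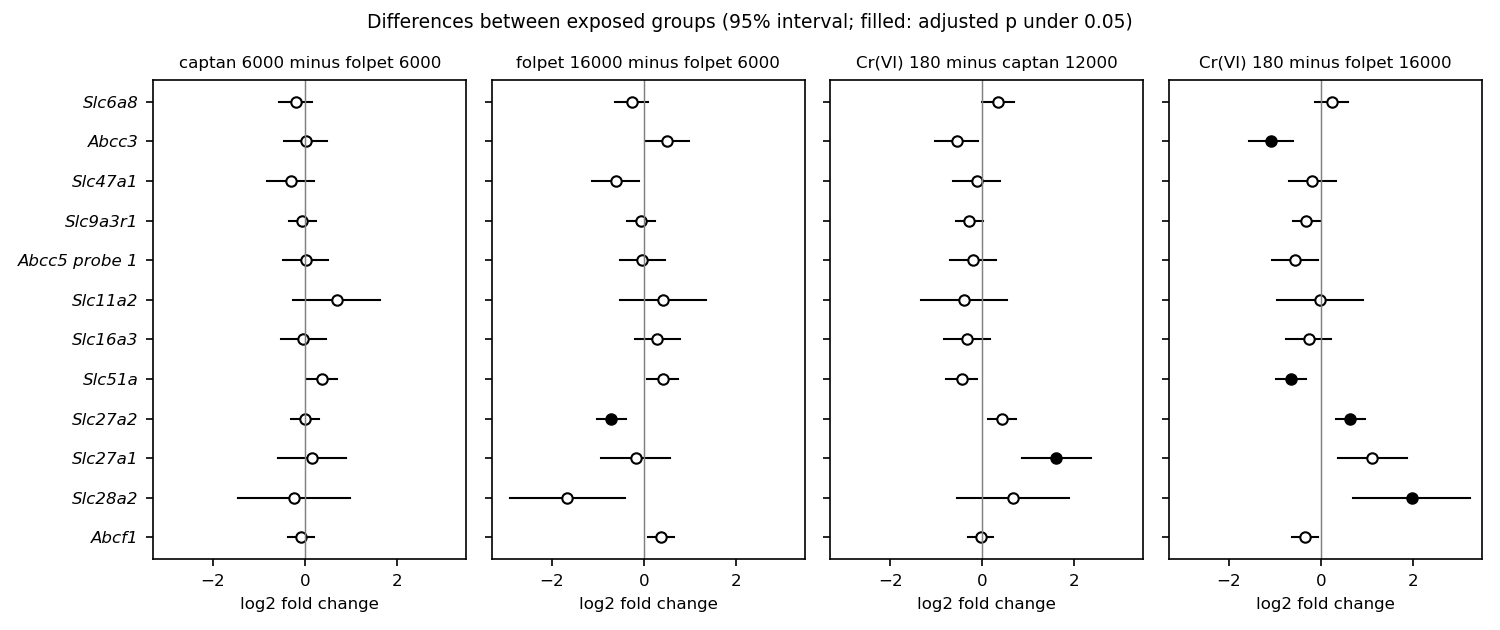
Log2 fold change (circle) with its 95% interval (line) of 12 transporter probes in 4 comparisons between exposed groups; filled circles have an adjusted p under 0.05. No circle is filled for captan 6000 against folpet 6000 ppm, Slc27a2 (-0.70) is filled for the folpet dose step, and Slc27a1 (1.61) is the one filled for Cr(VI) against captan 12000 ppm.

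Cr(VI) differed from the fungicides in a few carriers. Against folpet 16000 ppm 2 members were higher and 2 lower with Cr(VI) (background 1.97% and 5.35%, 7.32% in all); with library totals 0 were higher and 1 lower. Abcc3 was lower with no overlap between the groups (-1.08 ± 0.23, Cr(VI) minus folpet, adjusted p = 0.00142, edgeR), and Slc51a was lower (-0.64 ± 0.16, 0.00726), 6 of 7 Cr(VI) libraries lying below all folpet libraries. Slc27a2 was higher (0.64 ± 0.15, 0.00406), with no overlap by a narrow margin, and so was Slc28a2 (1.97 ± 0.62, 0.0445). The acinar share was 53.2% with Cr(VI) and 26.3% with folpet 16000 ppm; without the libraries over 50% acinar, which left 3 Cr(VI) libraries, Abcc3 was -0.66 and not called, while Slc51a (-0.61), Slc27a2 (0.83) and Slc28a2 (2.23) kept their calls. With the share as a covariate Slc51a was -0.47 and not called, while Abcc3 (-0.98), Slc27a2 (0.78) and Slc28a2 (2.45) were called. The Slc28a2 call was lost without Cr(VI) replicate 1, 3, 6 or 7 or folpet 16000 ppm replicate 1, 2, 3, 4, 5 or 7, at 1.75 to 2.04. Against captan 12000 ppm 1 member, Slc27a1, was higher with Cr(VI) (background 1.5% higher and 3.15% lower; with library totals 0 were higher and 11 lower, beside a median of -0.78 over all probes) at 1.61 ± 0.38 (acinar shares 53.2% and 11.7%, adjusted p = 0.00538). With the acinar share as a covariate this value was 0.28, and without the libraries over 50% acinar 1.05, neither of them called. Slc6a8 did not pass in either comparison, at 0.35 ± 0.18 against captan and 0.23 ± 0.18 against folpet.

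**Figure D5:**
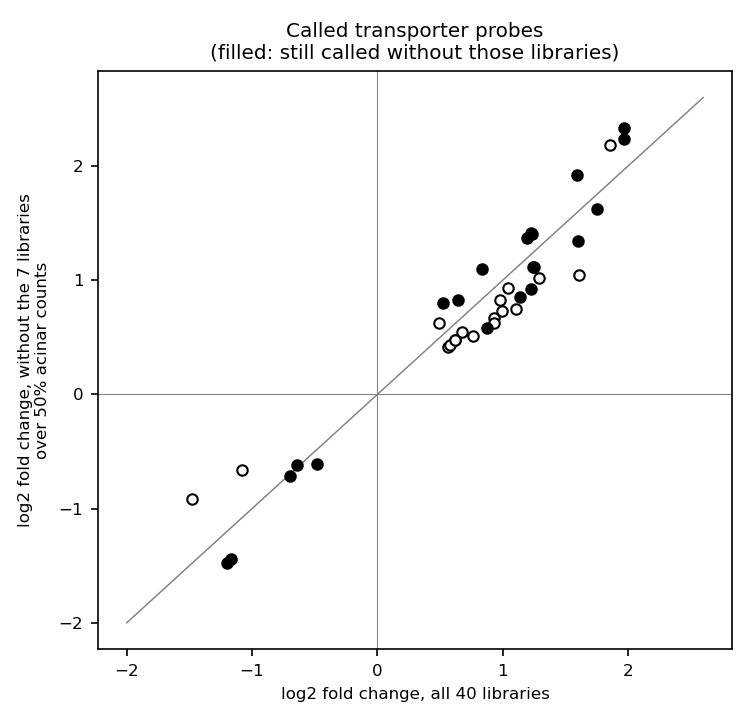
Log2 fold change of 39 called transporter results with all 40 libraries (horizontal) and without the 7 libraries over 50% acinar (vertical); each point is 1 probe in 1 comparison, the line marks equal values, and filled points remained called. Slc1a2 is left out of the plot; every plotted point kept its sign, and 21 of the 41 called results remained called.

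Genes that regulate transporters and work beside them were counted from lists chosen by function. Of 21 listed nuclear receptors and regulators 13 probes were measured and tested. Nr1i3 and Nr1h3 have more than 1 probe on the panel, and only probe 1, the one with more counts, is given. Of all probes 2.95%, 3.78%, 4.64%, 4.6% and 7.91% rose with Cr(VI), the 2 captan doses and the 2 folpet doses. With Cr(VI) 2 rose, Ppara (fatty acid receptor, 0.86 ± 0.20) and Nr1i3 (CAR, a sensor of foreign compounds, read by probe 1, 0.87 ± 0.17). Nr1i3 was the 1 riser with captan at 6000 ppm (1.11 ± 0.17), captan at 12000 ppm (1.33 ± 0.17) and folpet at 16000 ppm (1.52 ± 0.18). With folpet 6000 ppm 3 rose: Nr1i3 (1.36 ± 0.17), Ppara (0.88 ± 0.20) and Nr1i2 (PXR, 0.72 ± 0.19). Against control 0 of their results fell in edgeR, with 2 lower at an unadjusted p under 0.05 and 1 by DESeq2, and Nr1h4 (FXR, the bile acid receptor) did not pass. Of 33 listed partners of absorption 8 probes were tested. Fabp1 rose with Cr(VI) (0.69 ± 0.20), captan 12000 ppm (0.63 ± 0.20) and folpet 16000 ppm (0.66 ± 0.20), Fabp2 with the latter 2 (both are also among the enterocyte markers), and Atp1b1, a subunit of the sodium pump, fell by 0.42 ± 0.13 with Cr(VI). That is 1, 0, 2, 0 and 2 rises of 8 in edgeR (where 0, 1 higher at an unadjusted p under 0.05 and 0 by DESeq2), read against the same shares of all probes, and 1 fall with Cr(VI) against 2.99% of all probes.

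Of the genes with a family symbol outside the rule, the cystine importer Slc7a11 rose with captan 12000 ppm (4.60 ± 1.24) and folpet 16000 ppm (5.0 ± 1.26) and gave -0.61 ± 1.11 with Cr(VI). At 6000 ppm captan (3.27 ± 1.16, adjusted p = 0.0957) and folpet (3.63 ± 1.18, 0.0586) did not pass in edgeR. The dose steps of captan (1.33 ± 0.91) and folpet (1.38 ± 0.91) did not pass either. Abcb1a, an apical drug exporter, rose in all 5 groups, from 0.81 ± 0.24 with Cr(VI) to 1.60 ± 0.25 with folpet 16000 ppm.

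The 12 probes that did not pass the filter had counts of at most 77 in any library. Of these, 5 were 0 in all 40 libraries: the hepatic and brain organic anion carriers Slco1b2 and Slco1c1, the hepatic bile acid importer Slc10a1, the renal anion carrier Slc22a6 and probe 2 of Slc22a30. A floor of 3 counts, which covers counting error only, corresponds to 0.377 to 2.70 CPM across the libraries. Abcg2 probe 2 was above 0 in 7 libraries, and Slc22a2, Slc22a7, Slc22a30 probe 1, Abcb11, Slc5a5 and Slc17a6 in 1 to 3 each. Of all values of the members 30.7% were 0, against 28.5% over all probes.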

How the data were processed

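TempO-Seq counts per probe of 40 libraries were used as deposited, with no normalization, and columns were matched to libraries by title; replicate numbers follow accession order. Per the submitters' processing notes, the tools were bcl2fastq 2.17.1.14 and Bowtie and the build mm9; the sources used here do not give the step each served or any removal of low counts; 1.01% of nonzero values lie from 1 to 5. No molecular identifiers are mentioned, so floors cover counting error only.

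Probes were filtered with filterByExpr (minimum count 10, minimum total 15), which left 2541 of 3045, and scaled by TMM. All 40 libraries entered edgeR 4.0.16 (robust quasi-likelihood test, 1 mean per group, 34 residual degrees of freedom; R 4.3.3, limma 3.58.1), with 10 contrasts and 2-sided Benjamini-Hochberg p-values over all tested probes. Standard errors are the fold change over the square root of F. CPM use TMM-scaled library sizes, log2 CPM a prior count of 2. Marker shares were compared by exact permutation tests (scipy 1.17.1). Named are the 6 largest rises and 6 largest falls called in each comparison with control, 3 and 3 in the others, the tested member of highest mean CPM in each role class, and for 2 probes of a gene the one with more counts beside the other; further members are named as examples of their class, chosen with values known. The transporters, role classes and lists were chosen with earlier results of these data known. Alternatives were DESeq2 size factors, library totals, no filter, only the compared groups, DESeq2 1.42.0, the acinar share as a covariate, libraries over 50% acinar left out, and each library left out; the ratios of 2 probes of a gene and the leave-one-out acinar differences were chosen after seeing the data. On data simulated for captan 12000 ppm against control (2440 probes), 38.1% of 2-fold and 63.3% of 4-fold changes were recovered, with 2.94% false calls. Some members are counted but not reported by name here.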

Additional observations from a re-analysis of the deposited data

Results flagged for a closer look

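Single libraries stood far from the rest of their group in 8 of 108 groups of values examined; chance picks out about 1 in 20. On the log2 CPM scale, Abcc3 was 5.26 in control replicate 5 (nearest library 6.61) and 7.30 in captan 6000 ppm replicate 2 (nearest 7.96), and Slc16a3 was 5.79 in the same captan library (nearest 7.20). Slc26a2 was 7.23 in folpet 16000 ppm replicate 2 (nearest 7.82), and Slc28a2 was -0.30 in folpet 16000 ppm replicate 5 (nearest 4.47). Slc51a was 9.09 in captan 12000 ppm replicate 3 (nearest 8.72, the only such library above its group). Slc6a20a was 9.19 in Cr(VI) replicate 4 (nearest 9.72) and 9.68 in captan 6000 ppm replicate 4 (nearest 10.07).

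Exposed groups differed by edgeR's test of the difference itself in 6 results. Slc27a2 changed by -0.70 from folpet 6000 to 16000 ppm, and Slc27a1 was higher by 1.61 with Cr(VI) than with captan 12000 ppm. Cr(VI) minus folpet 16000 ppm was -0.64 for Slc51a, -1.08 for Abcc3, 0.64 for Slc27a2 and 1.97 for Slc28a2.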

How the results depend on the processing

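Of 41 called transporter results none changed direction under the alternatives run, and 38 stayed called with DESeq2 size factors in edgeR, 14 with library totals, 38 without the filter, 26 with the acinar share as a covariate, 21 without the libraries over 50% acinar, 40 in DESeq2 and 20 of 39 when the fit held the compared groups alone.

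The number of called transporters moved by over 1.5 times as follows, rises and falls together. For Cr(VI) against control, 2 became 0 with library totals, 1 with only the compared groups, 0 without the libraries over 50% acinar and 4 in DESeq2. For captan 6000 ppm, 8 became 3, 1 and 4 under the first 3 of these settings and 5 with the covariate; for captan 12000 ppm, 8 became 5, 1, 4 and 3. For folpet 16000 ppm, 12 became 2 with library totals and stayed between 8 and 13 in the other settings, and for folpet 6000 ppm no setting moved 5 that far. The folpet dose step gave 0 with library totals and 3 with only the compared groups against 1. Cr(VI) against captan 12000 ppm gave 11, 0 and 2 with library totals, without the libraries over 50% acinar and in DESeq2, against 1, and Cr(VI) against folpet 16000 ppm gave 1 with library totals against 4. With 1 library left out, the counts ran from 1 to 3 for Cr(VI) (1 without control replicate 2 or Cr(VI) replicate 2 or 6), 5 to 8 for captan 6000 ppm (5 without control replicate 5 or captan replicate 4), 5 to 10 for captan 12000 ppm (5 without control replicate 2 or 5 or captan replicate 3) and 1 to 2 for Cr(VI) against captan 12000 ppm (2 without Cr(VI) replicate 5 or captan replicate 7). The acinar share difference from control, in percentage points, then ran from -37.6 to -23.5 for captan 6000 ppm. For folpet 16000 ppm it ran from -29.6 to -15.5. Here the exact permutation p was not adjusted over the 5 comparisons. With all libraries this unadjusted p was 0.0253 for captan 6000 ppm and 0.0530 for folpet 16000 ppm. The captan value was above 0.05 without control replicate 4 or 5. The folpet value was below 0.05 without control replicate 3 or folpet 16000 ppm replicate 1.

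No paired analysis was possible because replicate numbers only follow accession order. With library totals the median of all probes was -0.30, 0.33, 0.44, 0.28 and -0.05 in the 5 comparisons with control, the Cr(VI) group first and the lower dose of each fungicide before the higher. Of the 76 probes 12 had too few counts to be tested. Over simulated probes of all count levels, a 2-fold change was recovered in 38.1% of cases for captan 12000 ppm against control.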
